A study of Mus musculus with 3 samples.

Results

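The 9 genes described here, Syt1, Snap25, Cntnap2, Dscam, Grid1, Tafa1, Spock3, Ptprq and Myo3b, are best known from neurons, neuroendocrine cells or the sensory cells of the inner ear, and were followed in the epithelium of the aged thymus. They are 9 of the 32285 mouse genes counted, and were chosen because 8 of them are high in medullary thymic epithelial cells (mTEC) with transcripts of Aire. Single-cell RNA-seq libraries had been made from nonhematopoietic (CD45-) thymic cells of untreated 20-month-old C57BL/6 mice, 10 to 15 thymi pooled for a library. There were 3 libraries, each the sole library of its group (n = 1): Foxn1 lineage trace female (Foxn1Lin female), Foxn1 lineage trace male (Foxn1Lin male) and wild type male. In the lineage trace, a Foxn1-driven Cre turns on a permanent reporter in thymic epithelial cells (TEC) and their progeny. The labels give the wild-type library as CD45- in the title and CD45-PECAM1+ in the cell type field, and the protocol text names female mice for all 3. All samples were of one age, so no comparison with a young thymus could be made, and a difference in genotype or sex between libraries cannot be told apart from one in animals or library.

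Cells were gated on unique molecular identifier (UMI) counts, the number of distinct transcripts of a gene captured from a cell. TEC had 2 or more Epcam UMIs and none of Pecam1 or Pdgfra, fibroblasts (FB) had 2 or more Pdgfra UMIs and endothelial cells (EC) 2 or more Pecam1 UMIs. TEC were split in turn into cells with at least 1 Aire UMI (the Aire class), cells with 2 or more UMIs of Psmb11, a proteasome subunit of cortical TEC, cells with 10 or more UMIs of Ccl21a, a chemokine of immature mTEC, and the remaining TEC. The 3 libraries held 17168 cells after filtering, from 3434 to 8478 a library, with 33386621 to 61258534 UMIs in the called barcodes and 1744 TEC in all. The Aire class had 267 cells in the wild type, 99 in Foxn1Lin male and 131 in Foxn1Lin female, and the remaining TEC had 468, 245 and 180 in the same order. Libraries shared 11 to 22 cell barcodes with another library.

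Medullary epithelium displays to developing T cells a sample of proteins that otherwise belong to other organs, so that T cells reactive to them can be removed. AIRE is the transcriptional regulator best known for this promiscuous expression, in which a given tissue-restricted gene is active in only a fraction of mTEC. A separate group of medullary cells, called mimetic TEC, takes on whole programs of peripheral cell types, among them a neuroendocrine type. In these ways genes of the synapse and of hair cells can be active in thymic epithelium. Whether either way accounts for the genes described here was not tested, and synapses and hair cells were not looked for.

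The Aire class carried the other medullary markers of its name. Counts of Fezf2, a second regulator of promiscuous expression, of the costimulatory gene Cd80 and of Ubd, Aire itself left out, summed to 2842 to 3244 UMIs per 1000000 UMIs of the class (CPM) in the Aire class and to 335 to 629 CPM in the remaining TEC. Cells of the Aire class were deeper, with medians of 13895, 21345 and 22034 UMIs, against 7899, 10098 and 13428 in the remaining TEC (values of 3 libraries stand in the order in which the libraries were introduced). A set of 10 hematopoietic genes also summed higher in the Aire class, 1064 to 1357 CPM against 223 to 673 CPM. With TEC that had a Ptprc UMI left out, 8 of the 9 genes were still highest in the Aire class, the order by which they were chosen. The hematopoietic sum was not measured again after this step, which therefore does not show how much of it was removed. Ptprc, which marks hematopoietic cells, was at 15.1, 9.2 and 9.2 CPM in the Aire class. It was at 18.9, 5.0 and 2.5 CPM in the remaining TEC, higher in the Aire class of 2 of 3 libraries. The 5 markers of cortical TEC summed to 570 to 1735 CPM in the Aire class, highest in Foxn1Lin female, and to 178 to 221 CPM in the remaining TEC. With cells of more than 1 TEC gate left out, 8 of the 9 genes were again highest in the Aire class, the same order, and the cortical sum was not measured again. The gate on Psmb11, 1 of the 5, keeps cells rich in it out of the remaining TEC but not out of the Aire class. The 7 markers of nonmyelinating Schwann cells, the glia of the tissue, summed to 20.6 to 23.4 CPM in the Aire class and to 36.6 to 56.6 CPM in the remaining TEC, with Cdh19 at 0 in the Aire class of 3 of 3 libraries and Gfap at 0 in that of 2.

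The genes lie on 6 autosomes and most are long. Cntnap2 (chr6:45059357-47304213, + strand, GRCm38, GENCODE vM21) spans 2245 kb, and Syt1 (chr10:108497650-109010982, - strand) spans 513 kb. Snap25 (chr2:136713453-136782428, + strand) is the shortest at 69.0 kb, and the other 6 span 203 to 763 kb. Reads assigned to transcripts (66.3% to 83.2%) exceeded those in exons (54.3% to 62.9%) in each library, so reads in introns were counted, and the counts of these genes come from both exons and introns. A predicted gene, Gm5136, lies within Syt1 on the same strand and had 115 UMIs in the Aire class against 22497 of Syt1, and how many reads fit both genes was not measured. No other gene that overlaps a member had a UMI there.

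RefSeq promoter windows, 250 bases before to 50 bases after a transcription start (build GRCm38.p6), were at hand for 6 of the 9 genes, with 9 windows in all. The 4 shown are 1 window each for the gene found in most Aire class cells (Syt1, chr10:109010926-109011225, - strand), for the longest gene (Cntnap2, chr6:45059811-45060110, + strand) and for the windows with the most and the least G and C (Dscam, chr16:97170686-97170985, - strand, and Tafa1, chr6:96112904-96113203, + strand). Capitals mark the GC box GGGCGG and the CCAAT box CCAAT, searched on both strands, as were the TATA box TATAAA and the E-box CACGTG.
Syt1: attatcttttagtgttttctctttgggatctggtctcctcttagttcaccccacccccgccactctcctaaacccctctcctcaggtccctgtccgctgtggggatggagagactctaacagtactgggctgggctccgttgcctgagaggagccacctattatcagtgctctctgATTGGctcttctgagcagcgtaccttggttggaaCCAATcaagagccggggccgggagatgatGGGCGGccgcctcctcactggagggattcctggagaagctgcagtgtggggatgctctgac
Cntnap2: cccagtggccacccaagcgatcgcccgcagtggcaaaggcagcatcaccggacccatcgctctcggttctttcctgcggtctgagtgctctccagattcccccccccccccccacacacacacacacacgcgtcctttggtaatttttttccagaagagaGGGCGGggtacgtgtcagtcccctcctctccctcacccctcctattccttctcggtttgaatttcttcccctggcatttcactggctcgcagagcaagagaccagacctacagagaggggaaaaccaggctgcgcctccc
Dscam: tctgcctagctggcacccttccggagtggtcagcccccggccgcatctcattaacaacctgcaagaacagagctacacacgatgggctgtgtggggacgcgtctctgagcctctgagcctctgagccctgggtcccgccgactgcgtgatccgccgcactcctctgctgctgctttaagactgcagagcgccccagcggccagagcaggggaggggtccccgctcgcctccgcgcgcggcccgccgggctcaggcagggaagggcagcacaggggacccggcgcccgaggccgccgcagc
Tafa1: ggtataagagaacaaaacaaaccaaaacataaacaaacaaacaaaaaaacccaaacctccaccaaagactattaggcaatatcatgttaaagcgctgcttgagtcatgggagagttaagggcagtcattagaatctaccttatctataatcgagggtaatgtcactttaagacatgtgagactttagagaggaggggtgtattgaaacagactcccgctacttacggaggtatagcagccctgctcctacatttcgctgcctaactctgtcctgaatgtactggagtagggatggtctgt
No TATA box or E-box was found in the 9 windows, against 13.6% and 7.15% of all 32851 promoter windows of this length. A CCAAT box was in 2 of the 9 windows, against 37.4% of all windows, and a GC box in 2 of 9, against 35.7%. The windows had no base composition in common. G and C made up 42.0% of the Tafa1 window and 70.0% of the Dscam window, where the median of all windows was 52.7%.

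Levels of 8 of the 9 genes were highest in the Aire class, of the 6 classes, in 3 of 3 libraries. This order was used to choose the genes and is described without a test. Of the 18424 genes with at least 50 UMIs over all classes, 14.4% had it too. Snap25 was the exception, with its highest level in the remaining TEC of each library.

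Syt1 encodes synaptotagmin-1, the calcium sensor of synaptic vesicle release. It stood at 1447 CPM (95% Poisson interval, covering counting error only, 1397 to 1498) in the Aire class of Foxn1Lin female, 2165 CPM (2107 to 2225) in that of Foxn1Lin male and 2037 CPM (2003 to 2071) in that of the wild type. In the remaining TEC it stood at 505, 351 and 370 CPM. Every library thus had more Syt1 in the Aire class, by 2.86 to 6.17 times, and the ranges of both classes over libraries did not overlap. At least 1 Syt1 UMI was present in 89.3%, 86.9% and 86.9% of Aire class cells. The Psmb11 class held 3.7, 2.7 and 43.9 CPM, and the Ccl21a class 35.0, 46.7 and 416 CPM, so the wild type was highest in both. EC held 84.3, 158 and 315 CPM, a range that did not reach that of the remaining TEC, whereas the range of the Ccl21a class overlapped both.

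Snap25 encodes the membrane SNARE with which vesicles that carry synaptotagmin-1 fuse. Its level was 2.3, 5.8 and 7.9 CPM in the Aire class and 68.1, 34.4 and 10.8 CPM in the remaining TEC, the reverse of the order of Syt1. The level in the remaining TEC came from very few cells. Of 119 UMIs in Foxn1Lin female, 116 were in 1 cell, and the 5 richest cells held 97.1% of those of Foxn1Lin male and 97.8% of those of the wild type. With TEC set at 5 or more Epcam UMIs, that cell of Foxn1Lin female was left out and the order turned in this library, with 1.7 CPM in the remaining TEC and 2.3 CPM in the Aire class. The wild type then had 9.8 CPM in the remaining TEC, 8.4 CPM in the Aire class and 10.0 CPM in the Ccl21a class. The share of cells with a Snap25 UMI was 2.3%, 8.1% and 7.9% in the Aire class and 1.7%, 2.9% and 1.5% in the remaining TEC, with deeper cells in the Aire class. At equal depth the order rested on few cells and turned with the depth chosen. The share was lower in the Aire class of 2 of 3 libraries at 2000 UMIs a cell, and at 4000 UMIs it was 0.82%, 2.2% and 2.3% in the Aire class (1, 2 and 6 cells) and 0.73%, 2.6% and 0.96% in the remaining TEC, higher in the Aire class of 2.

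The adhesion genes Cntnap2 and Dscam followed Syt1. Cntnap2 encodes a neurexin-related protein of axons that holds potassium channels beside the node of Ranvier. It was at 246, 417 and 327 CPM in the Aire class and at 113, 29.4 and 9.5 CPM in the remaining TEC. The high value of Foxn1Lin female in the remaining TEC came from few cells, with 141 UMIs in 1 cell and 90.4% of the UMIs in 5 cells, and the ratio of both classes ran from 2.17 in that library to 34.6 in the wild type. With 5 or more Epcam UMIs required, the remaining TEC of Foxn1Lin female were at 20.7 CPM and the ratio there was 9.61. Dscam, an immunoglobulin superfamily receptor of neurite self-avoidance, was at 59.0, 54.2 and 70.6 CPM against 11.4, 10.2 and 7.1 CPM. A UMI was present in 25.2%, 20.2% and 26.6% of Aire class cells, and the 5 richest cells held 60.5%, 80.8% and 32.7% of the UMIs, so that few cells made up the level in both lineage trace libraries and less so in the wild type.

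Grid1 encodes GluD1, a delta glutamate receptor that organizes synapses by binding cerebellins. It was at 91.5, 178 and 268 CPM in the Aire class and at 21.2, 30.1 and 39.7 CPM in the remaining TEC. The ratio of the classes lay between 4.32 and 6.74. In the wild type, 169 of the 336 UMIs of the remaining TEC were in 1 cell, and with 5 or more Epcam UMIs required the remaining TEC were at 7.4, 31.3 and 21.2 CPM and the ratios at 11.5, 5.84 and 13.6. Tafa1 encodes a small secreted protein of the brain. It was at 183, 167 and 248 CPM in the Aire class and at 143, 28.7 and 97.2 CPM in the remaining TEC, so that Foxn1Lin female differed little between classes, by 1.28 times. With 5 or more Epcam UMIs required, Foxn1Lin female had more Tafa1 in the remaining TEC (194 CPM) than in the Aire class (133 CPM). Spock3, a testican proteoglycan of brain matrix, differed little between libraries, at 442, 429 and 404 CPM in the Aire class against 80.1, 52.9 and 40.0 CPM in the remaining TEC.

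Ptprq and Myo3b belong to the hair bundle, the mechanosensitive organelle of inner ear hair cells. Ptprq, a receptor-type phosphatase of the bundle surface, was at 443, 437 and 555 CPM in the Aire class and at 68.1, 20.5 and 48.6 CPM in the remaining TEC. Myo3b, a class III myosin of stereocilia, was at 409, 317 and 385 CPM against 119, 38.3 and 49.8 CPM. Both were in most Aire class cells, Ptprq in 76.3%, 69.7% and 74.5% and Myo3b in 74.8%, 70.7% and 76.4%. In the Psmb11 class Myo3b was at 4.5 and 4.8 CPM and Ptprq at 1.5 and 1.4 CPM in Foxn1Lin female and wild type, and both were at 0 in Foxn1Lin male.

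**Figure D1:**
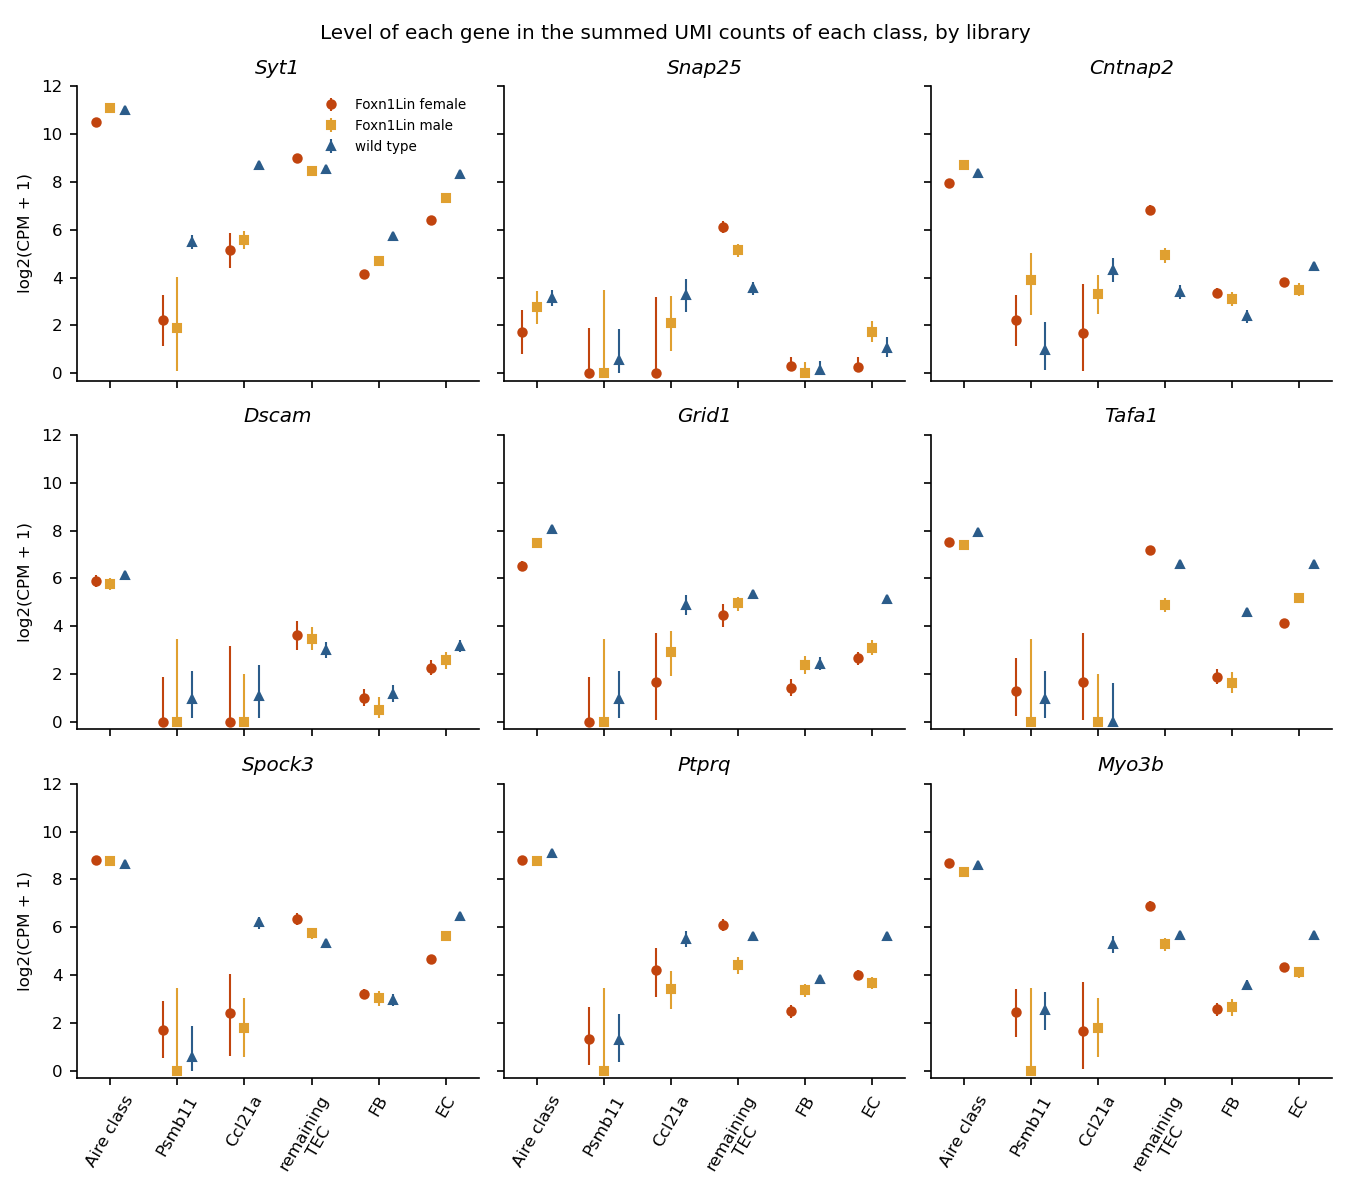
Level of each gene, as log2(CPM + 1), in the summed UMI counts of each of the 6 classes, with 1 point a library and bars for the 95% Poisson interval, which covers counting error only. Points of the Aire class lie above all other classes in the panels of 8 genes, and Snap25 is highest in the remaining TEC at 68.1, 34.4 and 10.8 CPM.

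The order of the classes below the Aire class was less sharp. For Cntnap2, Grid1, Dscam, Tafa1, Spock3, Ptprq and Myo3b, the ranges of the remaining TEC and of EC over libraries overlapped. Within libraries, Grid1 was higher in the remaining TEC in 3 of 3, and the other 6 of these genes in 2 of 3. Once EC with an Epcam or Aire UMI were left out, the ranges overlapped for none of the 9 genes, with Grid1 in EC at 0.25 to 0.63 CPM and Dscam at 0.13 to 0.87 CPM. In the Psmb11 class, Grid1, Dscam and Snap25 were at 0 in Foxn1Lin female and Foxn1Lin male, and Tafa1, Spock3, Ptprq and Myo3b in Foxn1Lin male. A count of 0 allows up to 2.2 CPM in Foxn1Lin female and 8.2 CPM in Foxn1Lin male, whose class had 11 cells.

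Levels in EC came largely from cells that also had an Epcam or Aire UMI, and those in FB did so in part. In wild-type EC, Syt1 fell from 315 CPM to 63.0 CPM once the 141 of 1024 EC with such a UMI were left out, an alternative chosen after the data were seen. For the 8 genes other than Snap25, EC without such a UMI held 0.86% to 32.6% of the UMIs of all EC, and FB without one 4.6% to 85.7%, the most for Grid1 in Foxn1Lin female with 24 of 28 UMIs. Cntnap2 in wild-type EC was at 21.5 CPM with and 1.5 CPM without those cells, and Spock3 at 88.1 and 3.0 CPM. What remained was below the level, for all 9 genes in 3 of 3 libraries, in empty droplets, barcodes with too few UMIs to be cells, which hold RNA free in the suspension. Empty droplets had 111, 212 and 386 CPM of Syt1, 36.0, 53.5 and 92.4 CPM of Spock3 and 0.6, 2.1 and 5.1 CPM of Snap25. All 9 genes therefore had free RNA in the suspension, and single UMIs in other classes can come from it. The Aire class was above empty droplets for 9 of 9 genes in 3 of 3 libraries. The remaining TEC were below them for 5 genes in Foxn1Lin male (Cntnap2, Tafa1, Spock3, Ptprq and Myo3b) and for 6 in the wild type (Cntnap2, Syt1, Dscam, Spock3, Ptprq and Myo3b), and for 0 in Foxn1Lin female, so that these levels of the remaining TEC are no higher than that of the free RNA. The Psmb11 class was below them for all 9 genes in 3 of 3 libraries, and the Ccl21a class for 7 to 9.

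Shares of cells were set at 1 depth by drawing 2000 UMIs from each cell at random, and cells with fewer were left out (0, 2 and 3 cells of the Aire class and 13, 13 and 18 of the remaining TEC). A Syt1 UMI was then found in 76.3%, 78.4% and 79.5% of Aire class cells, in 21.6%, 12.5% and 13.3% of the remaining TEC and in 2.4%, 4.0% and 6.5% of EC without an Epcam or Aire UMI. The order was the one by which Syt1 was chosen. Ptprq was in 45.0%, 37.1% and 43.9% of Aire class cells at this depth, Myo3b in 37.4%, 41.2% and 45.5%, and Spock3 in 39.7%, 27.8% and 33.7%. Cntnap2, Grid1 and Tafa1 were in 14.5% to 27.8% of these cells and Dscam in 5.2% to 11.0%. Only for Snap25 did the order of these classes differ between libraries. It was in 0 of 131, 2.1% and 0.4% of Aire class cells and in 1.2%, 1.7% and 0.9% of the remaining TEC, and 0 of 131 cells allows a share of cells with a UMI at this depth of up to 2.3% by a floor of 3 cells, or 2.78% by the Clopper-Pearson bound.

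**Figure D2:**
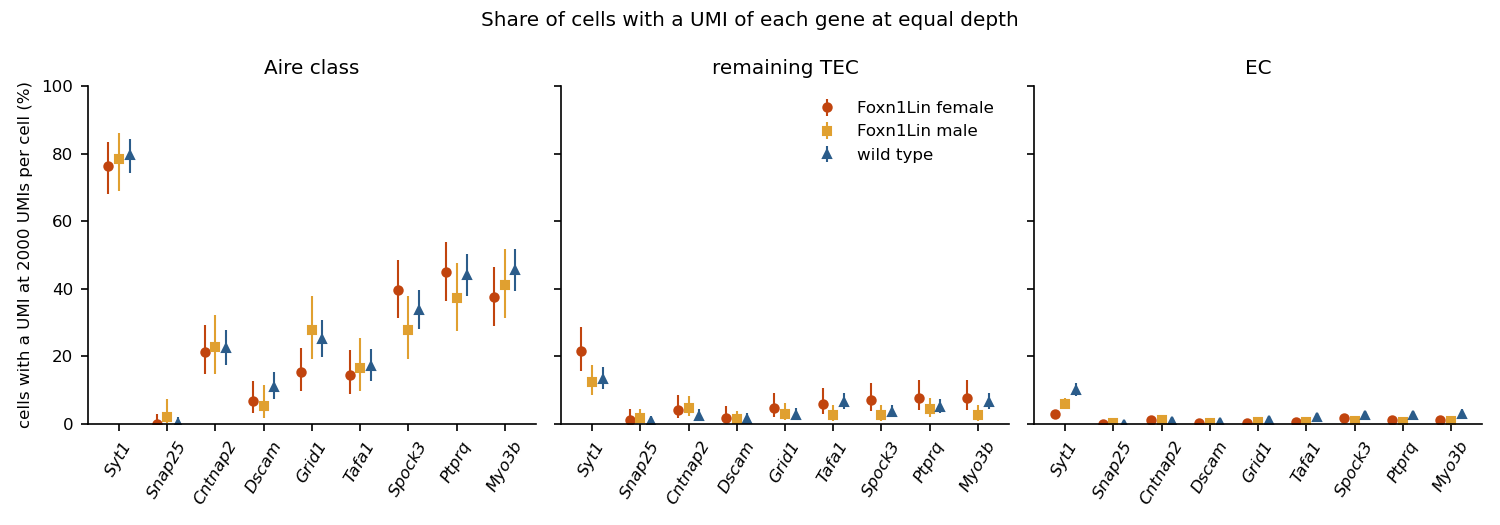
Percentage of cells with a UMI of each gene after every cell was thinned to 2000 UMIs, in the Aire class, the remaining TEC and EC, with 1 point a library and bars for the 95% Clopper-Pearson interval. Syt1 reaches 76.3% to 79.5% in the Aire class and 12.5% to 21.6% in the remaining TEC, and no gene but Syt1 exceeds 3.1% in EC.

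The number of the genes found in single cells was counted next. At 2000 UMIs a cell, the mean number of the 9 genes with a UMI was 2.56, 2.59 and 2.78 and the median 3 in each library, against means of 0.623, 0.353 and 0.422 in the remaining TEC. At least 2 of the genes were found together in 70.2%, 70.1% and 76.1% of Aire class cells and in 18.6%, 9.1% and 11.1% of the remaining TEC. None of the genes was found in 13.0%, 13.4% and 11.0% of Aire class cells. Without thinning, the mean was 4.54, 4.54 and 4.49 genes in the Aire class and 1.03, 0.645 and 0.842 in the remaining TEC, so the number found depends on depth, and a gene without a UMI may still be expressed.

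**Figure D3:**
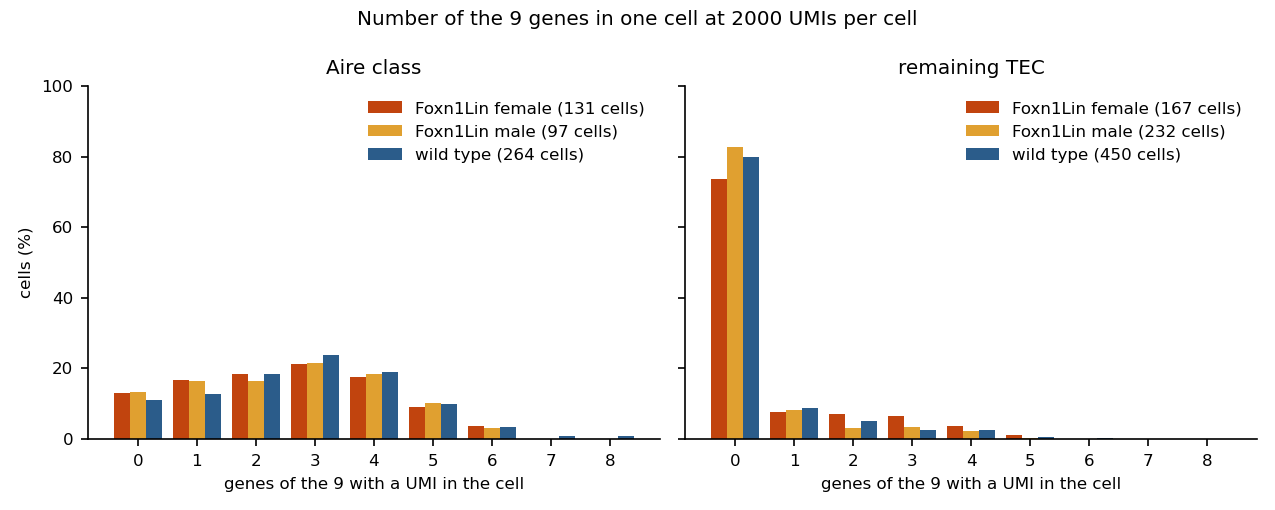
Percentage of cells by how many of the 9 genes had a UMI, at 2000 UMIs a cell, for the Aire class and the remaining TEC, with 1 bar a library. The Aire class peaks at 3 genes in each library, and 73.7% to 82.8% of the remaining TEC had none.

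Pairs of genes were compared within the Aire class by phi, the correlation of their presence and absence over cells. These cells share library and free RNA, and the values are a description. Over the 28 pairs of the 8 genes other than Snap25, phi ran from -0.15 to 0.36, was above 0 in 3 of 3 libraries for 21 pairs and below 0 in 3 of 3 for none. Spock3 with Ptprq gave 0.24 to 0.36 and Syt1 with Myo3b 0.26 to 0.29. Presence of Grid1 and of Spock3 showed little relation, with phi from -0.10 to 0.08, and Tafa1 with Spock3 ran from -0.15 to 0.24. The pair of hair bundle genes, Ptprq and Myo3b, gave -0.08 to 0.13.

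Levels were also set against the number of Aire UMIs in the cell. TEC with none held 255, 243 and 321 CPM of Syt1, cells with 1 Aire UMI held 696, 1915 and 1349 CPM, cells with 2 to 4 held 1408, 2447 and 2385 CPM, and cells with 5 or more held 1786, 2150 and 2221 CPM. The step from no UMI to 1 was thus upward in each library, the 1 Aire UMI being the limit of the gate. All of the 8 genes other than Snap25 were higher at 1 Aire UMI than at none in 3 of 3 libraries, as were 14.7% of the 15755 genes with at least 50 UMIs in TEC, a step along the measure that chose them. From 1 UMI to 5 or more, 6 of these 8 genes were higher in 3 of 3 libraries and Grid1 and Myo3b in 2. Of the 15755 genes, 23.9% were higher in 3 of 3 libraries, and the 9 genes had been chosen on Aire class levels that include these cells. In Foxn1Lin male Grid1 went from 263 to 174 CPM. Cells with 5 or more Aire UMIs were the deepest in each library, with medians of 16406.5, 27973 and 24656 UMIs against 12657, 12937 and 19466 at 1 Aire UMI and 11306, 11070 and 18560 at 2 to 4, and depth was not separated from Aire level.

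Snap25 was examined cell by cell, since its level rested on few cells. There were 23 TEC with 3 or more Snap25 UMIs, 11 in the Aire class with 3 to 10 UMIs each, 10 in the remaining TEC with 3 to 116 and 2 in the Ccl21a class. The 10 cells of the remaining TEC held a median of 9 of the other 15 genes in a list for neuroendocrine TEC, and the 11 cells of the Aire class a median of 3. Cells with 0 to 2 Snap25 UMIs held a median of 0 in the remaining TEC and of 2 in the Aire class, in each library. The granule protein gene Chga had a UMI in 8 of the 10 and in 4 of the 11, the transcription factor gene Insm1 in 8 and in 9, and Car8, a marker of neural TEC, in 5 and in 1. Syt1 was present in all 23, at 12 to 290 UMIs. The richest cell, that of Foxn1Lin female with 116 Snap25 UMIs, had 42 of Syt1 and 43 of Scg2 but none of Chga, Chgb or Insm1. These cells were picked on Snap25, so no test was made of the genes found in them.

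**Figure D4:**
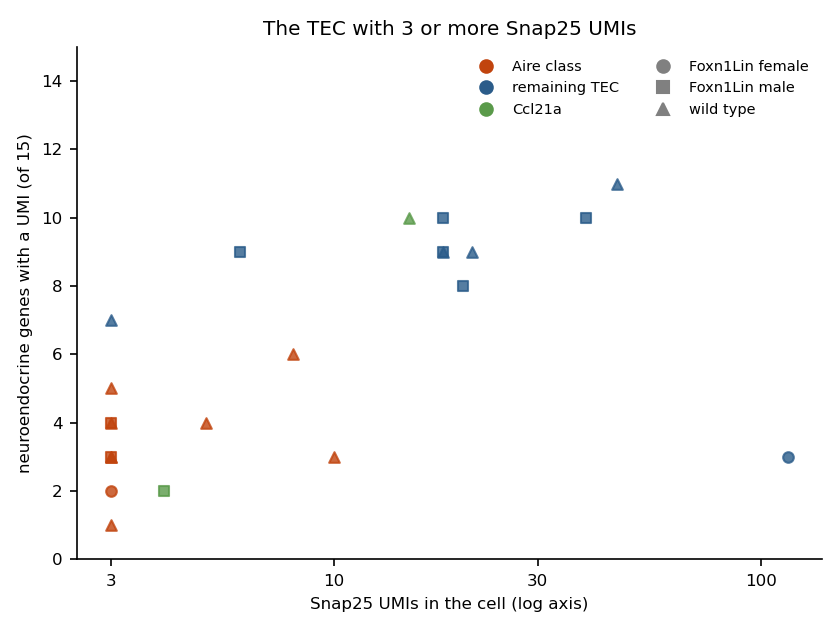
Number of 15 neuroendocrine TEC genes with a UMI against the number of Snap25 UMIs (log axis) in the 23 TEC with 3 or more Snap25 UMIs, colored by class and shaped by library. Cells of the remaining TEC lie at 7 to 11 genes, apart from 1 cell with 116 Snap25 UMIs at 3 genes, and those of the Aire class at 1 to 6.

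The genes of the same pathways that are not among the 9 were tested with edgeR's quasi-likelihood test on UMI counts summed per library and class, with library as a block (6 sums, n = 3 libraries). Replicates are here the libraries, which differ in genotype and sex. With library as a block, p-values measure how consistent the difference between classes was from library to library. Against all other TEC, 39 of 114 genes tested were higher in the Aire class and 21 lower (Benjamini-Hochberg adjusted p under 0.05). Over all 14587 genes, 17.9% were called higher and 17.3% lower. The median log2 fold change was 0.81 over the 114 genes and -0.04 over all genes. The lists went both ways, and each held genes that were lower.

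Of vesicle release genes other than Syt1 and Snap25, 5 of 19 were higher, 2 were lower and 12 did not pass (median log2 fold change 0.34). Syn2, which tethers vesicles, was higher by a log2 fold change of 2.22 ± 0.30 (SE, adjusted p = 0.00707) and Syt7, a slower calcium sensor, by 1.97 ± 0.33 (adjusted p = 0.0116). Rims2 of the active zone was higher by 1.21 ± 0.15 (adjusted p = 0.00571). Pclo, the active zone scaffold piccolo, was lower by a log2 fold change of -1.09 ± 0.12 (adjusted p = 0.00458) and the vesicle glycoprotein gene Sv2b by -1.27 ± 0.15 (adjusted p = 0.00542). Over all genes, 17.9% were higher and 17.3% lower. Syn2 was at 203, 100 and 111 CPM in the Aire class and 29.6, 37.2 and 18.7 CPM in the other TEC, whereas Pclo was at 66.8, 68.0 and 102 CPM and 131, 149 and 206 CPM.

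Neural adhesion genes, the list with the most genes tested, gave 14 of 35 higher and 7 lower (median log2 fold change 1.17). The shares of all genes were 17.9% higher and 17.3% lower, so the lower share lies near that of all genes. The 4 with the largest rise were Ntm (3.82 ± 0.31), Tenm1 (3.62 ± 0.18), Cntnap1 (3.55 ± 0.47) and Cadm2 (3.53 ± 0.30), with adjusted p from 0.00157 to 0.0068. Ntm encodes the adhesion protein neurotrimin, Tenm1 a teneurin, Cntnap1 a relative of Cntnap2 beside the node of Ranvier and Cadm2 a synaptic cell adhesion molecule. Tenm1 was at 59.9, 95.5 and 80.4 CPM in the Aire class and 5.1, 8.5 and 5.3 CPM in the other TEC. Chl1 (-2.79 ± 0.36), Tenm4 (-2.32 ± 0.30), Sdk2 (-2.23 ± 0.40) and Nlgn2 (-2.11 ± 0.28) were lower (adjusted p 0.00626 to 0.0133). Of the teneurins named, Tenm1 was higher in 3 of 3 libraries and Tenm4 lower in 3 of 3.

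Of glutamate receptor genes and their partners, 5 of 20 were higher and 4 lower (median log2 fold change 0.27). The NMDA receptor subunit gene Grin2c rose by 4.63 ± 0.42, the metabotropic receptor gene Grm7 by 3.43 ± 0.31 and the kainate receptor subunit gene Grik2 by 3.39 ± 0.55 (adjusted p 0.00334 to 0.0106). Grm4 passed as well (adjusted p = 0.0141), with 238 UMIs in the Aire class and 2 in all other TEC, a ratio of CPM of 211 with a counting interval of 57.8 to 1752. Grm8 fell by 2.84 ± 0.30 on the log2 scale, Grin3a by 1.95 ± 0.44, the scaffold gene Shank2 by 1.76 ± 0.22 and Grik4 by 1.10 ± 0.27 (adjusted p 0.00445 to 0.0327). These shares lie near the 17.9% and 17.3% of all genes.

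All 5 genes tested of the TAFA and SPOCK families passed, 3 higher and 2 lower, where 17.9% and 17.3% of all genes were called. Tafa2 (2.94 ± 0.42), Tafa4 (2.89 ± 0.60) and Spock1 (2.37 ± 0.20) were higher, as Tafa1 and Spock3 were, and Tafa5 (-1.64 ± 0.31) and Spock2 (-1.08 ± 0.14) were lower (adjusted p 0.00304 to 0.0202). Tafa2 was at 49.5, 101 and 73.2 CPM in the Aire class and 7.1, 5.4 and 15.9 CPM in the other TEC.

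Hair bundle genes other than Ptprq and Myo3b gave 5 higher and 3 lower of 14 (median log2 fold change 0.98), against 17.9% and 17.3% of all genes. The actin bundling gene Espnl rose by 3.16 ± 0.85, the tip link cadherin gene Cdh23 by 1.79 ± 0.39 and Tmie, of the transduction complex, by 1.40 ± 0.21 (adjusted p 0.00883 to 0.0407). Tmie was at 43.5, 31.3 and 23.5 CPM in the Aire class. Otog, which encodes the otogelin of the tectorial membrane, fell by 3.35 ± 0.77 on the log2 scale, Clrn1 by 2.23 ± 0.49 and Ush1c, a harmonin scaffold gene, by 1.53 ± 0.26 (adjusted p 0.0112 to 0.0265). Otog was at 157, 252 and 605 CPM in the other TEC and 27.5, 2.1 and 116 CPM in the Aire class.

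Genes of neuronal structure and RNA binding gave 3 higher and 2 lower of 11 (median log2 fold change -0.05), against 17.9% and 17.3% of all genes. Rbfox3, the gene of the neuronal nuclear antigen NeuN, rose by 6.08 ± 0.52, the neurofilament gene Nefh by 4.00 ± 0.70 and Elavl3 by 2.07 ± 0.37, and Rbfox1 fell by 1.11 ± 0.16 and Map2 by 1.04 ± 0.14 on the log2 scale (adjusted p 0.00302 to 0.0132). Rbfox3 was low in level all the same, at 40.3, 18.3 and 23.9 CPM. Neuroendocrine TEC genes other than Snap25 gave 4 higher and 1 lower of 11 (median log2 fold change 0.81), against the same 17.9% and 17.3% of all genes. Insm1 rose by 3.88 ± 0.17, Resp18 by 1.59 ± 0.24 and Ddc by 0.94 ± 0.23, and Car8 fell by 3.03 ± 0.38 on the log2 scale (adjusted p 0.00157 to 0.0332). Chga of this list, chosen after its values were seen, did not pass (edgeR adjusted p = 0.309), at 1881, 19.6 and 29.1 CPM in the Aire class and 284, 950.3 and 619 CPM in the other TEC. Parathyroid markers, Chga of this list among them, also differed between classes and libraries. Pth was at 5082 CPM in the Aire class of Foxn1Lin female from 1 cell with 50 or more Pth UMIs, and at 1186 to 5729 CPM in the remaining TEC. The 4 parathyroid markers summed to 31.7 to 7037 CPM in the Aire class and 1788 to 7199 CPM in the remaining TEC. Leaving out the 7 TEC with 50 or more Pth UMIs gave 41 list genes higher and 22 lower in all.

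**Figure D5:**
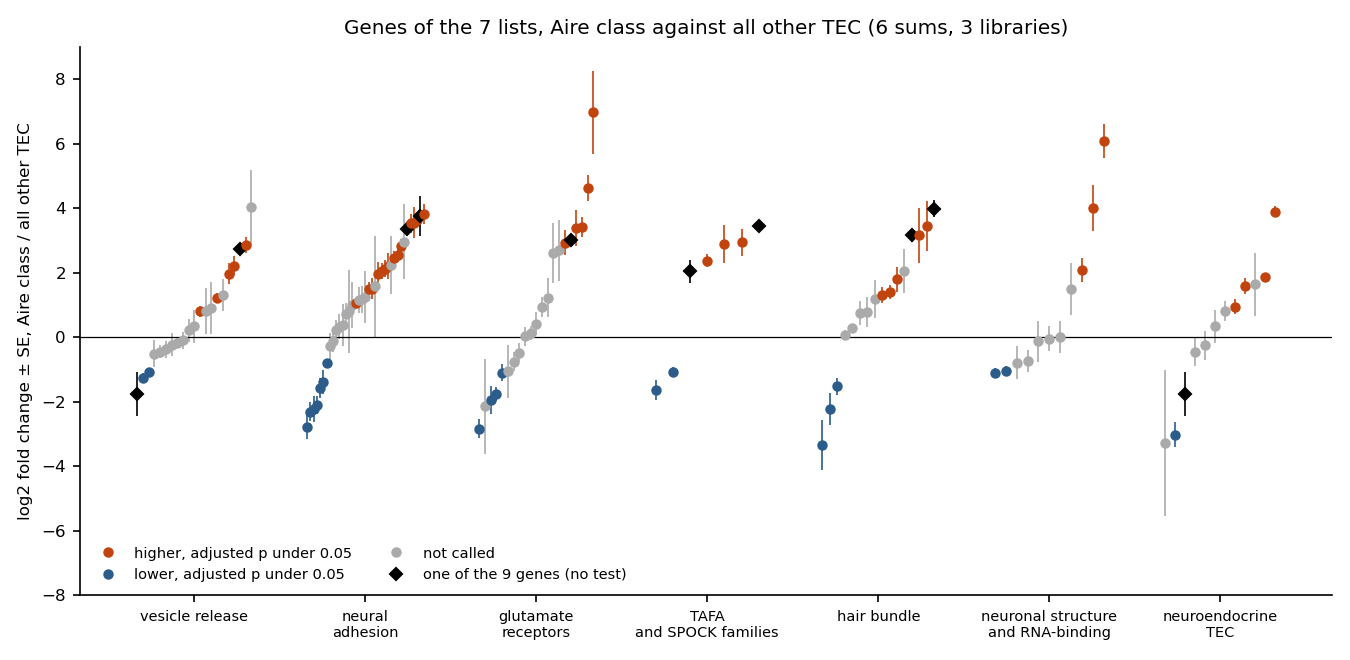
Log2 fold change ± SE of each gene tested in the 7 lists, Aire class against all other TEC, from edgeR on 6 sums of 3 libraries, colored by the call, with the 9 genes as black diamonds and without a test. Calls lie on both sides of 0 in each list, 39 higher and 21 lower over the 114 genes, and 8 of the 9 genes lie between 2.04 and 3.98 with Snap25 at -1.77.

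The remaining TEC, those outside the Aire, Psmb11 and Ccl21a gates, served as a narrower reference. Which cell types they hold was not determined, and parathyroid markers were among their transcripts. Against the remaining TEC, 36 of 104 list genes were higher and 16 lower, where 15.9% and 13.9% of all 13503 genes were called. The neural adhesion list again gave 14 higher, with 5 lower, of 33, with Cntnap1, Tenm1, Ntm and Cadm2 among the higher at log2 fold changes of 3.60, 2.99, 3.95 and 2.94. Among the genes named above, Syt7, Rims2, Tafa4, Spock2, Rbfox1 and Ddc did not pass here (edgeR adjusted p 0.051 to 0.665), and Grm4 and Clrn1 were filtered out for low counts. Both comparisons share the sums of the Aire class. They also rest on the wild-type library, without which 0 of 103 list genes, and 0 of all 13386 genes, passed against the remaining TEC, with 36 higher and 17 lower at an unadjusted p under 0.05, and 27 higher and 6 lower of 107 against all other TEC, where 952 and 518 of all 14023 genes passed.

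Genes with the profile most like that of the 9 were sought over the 18 sums of 6 classes in 3 libraries, among 18409 genes, with Pearson's r of log2(CPM + 1) to the mean profile of the 9. The sums share libraries, and r is a description. Tnfrsf8 (r = 0.979), the gene of the receptor CD30, came first, followed by Dscaml1 (0.977), Skint4 (0.976), A730036I17Rik (0.969) and Adgb (0.967). Dscaml1 is the closest relative of Dscam, and was at 284 to 309 CPM in the Aire class and at most 144 CPM elsewhere. For single genes, the closest were Slc37a1 for Syt1 (0.953), Ccdc33 for Cntnap2 (0.948), Cdx1 for Dscam (0.979), Insm1 for Grid1 (0.952), Ccdc184 for Tafa1 (0.944), Syn2 for Spock3 (0.954), Gm47938 for Ptprq (0.966) and Dscaml1 for Myo3b (0.968). Snap25 was the least matched, with Spire2 at 0.906. Among themselves the 8 other genes had r of 0.71 to 0.97, and Snap25 had 0.50 to 0.69 with them.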

How the data were processed

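The authors sorted CD45- cells, made Chromium single-cell libraries and counted UMIs with Cell Ranger 7.0.1 on mm10 (GRCm38). The headers of the matrices of all barcodes name Cell Ranger 4, and those of called barcodes 7.0.1, with 0 entries differing at called barcodes. The deposited matrices hold raw UMI counts per gene and barcode, and the deposited Cell Ranger summaries gave the percent of reads in introns (21.7% to 27.5%). The 9 genes, the lists and the tests were chosen with earlier results of these data known.

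Left out were 509 of 17677 called barcodes that had both a low gene number (at most 1000) and a high mitochondrial share (at least 20% of UMIs). Cells passing several TEC gates (74) went to the first in the order Aire, Psmb11, Ccl21a. No doublet caller was run. The gate on Pecam1 and Pdgfra and 2 alternatives stood in for it. CPM are summed counts per 1000000 UMIs of a class in a library, with exact Poisson intervals, and shares have Clopper-Pearson intervals (95%, scipy 1.17.1). These cover counting error only, and a count of 0 allows 3 counts. Empty droplets were uncalled barcodes with UMI totals between 0.5 and 2 times the most frequent total.

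Sums were tested with edgeR 4.0.16 (R 4.3.3; TMM, filterByExpr, glmQLFTest, Benjamini-Hochberg), tested first on simulated data, with DESeq2 1.42.0 as alternative. Both classes of a library come from the same pooled animals, so library was a block. The SE is the log2 fold change over the square root of F. Named were the 9 genes and, in each list, up to 4 genes a direction with the largest change against all other TEC among those past the threshold, and for likeness the 5 genes nearest to the mean profile and 1 for each gene, of genes with at least 50 UMIs. Some of the genes so picked are not reported here. Lists and their number of genes tested are given in the text. Gene positions are from GENCODE vM21 and promoter windows from RefSeq.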

Additional observations from a re-analysis of the deposited data

Results flagged for a closer look

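The 9 genes were also present in called barcodes that passed none of the 6 gates but had an Aire UMI, 202 (Foxn1Lin female), 53 (Foxn1Lin male) and 159 (wild type), which enter no comparison above. These barcodes were shallower than the Aire class, with medians of 5000, 6251 and 9550 UMIs. Over the 3 libraries, Syt1 stood at 1348 to 2237 CPM in them, Cntnap2 at 286 to 461 CPM, Grid1 at 105 to 240 CPM and Dscam at 68.3 to 83.6 CPM. Tafa1 was at 218 to 405 CPM, Spock3 at 370 to 551 CPM, Ptprq at 472 to 712 CPM and Myo3b at 361 to 548 CPM. Snap25 was low there too, at 1.8 to 4.9 CPM. The values were flagged because the barcodes lie outside the gates, and the gate on Epcam was not examined as their cause.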

How the results depend on the processing

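With Aire at 2 or more UMIs, cells of several gates, doubtful cells, the deepest 3.9% of barcodes, TEC with Ptprc or 50 or more Pth UMIs, or overlapping FB and EC left out, 8 of the 9 genes remained highest in the Aire class, and with 5 or more Epcam UMIs 7, Tafa1 being the exception. Without thinning, Snap25 also had its highest share of cells in the Aire class. Of 198 values of the 9 genes under alternatives, 46 moved by more than the SD between libraries, among them FB and EC levels without Epcam or Aire UMIs and shares at other depths. Against all other TEC, list genes higher and lower ran from 35 to 49 and from 15 to 22 over the alternatives that kept all libraries, and from 27 to 43 and 6 to 21 with 1 library left out. Against the remaining TEC they ran from 31 to 40 and 11 to 19, and from 0 to 37 and 0 to 21 with 1 left out. The lowest values were without the wild type. The fit with no replicate block gave 40 higher and 15 lower against all other TEC and 33 and 11 against the remaining TEC. Of the 44 list genes picked by the rule for naming, 36 kept their call against all other TEC under every alternative with all libraries, and of the 36 of them called against the remaining TEC 24 did. Without the wild type, 23 of the 44 lost their call against all other TEC, and 35 of the genes called against the remaining TEC lost theirs. With 5 or more Epcam UMIs Snap25 was no longer highest in the remaining TEC of Foxn1Lin female and of the wild type. Against the remaining TEC, Spock2 ran from -0.43 to 0.17 with 1 library left out, the highest without Foxn1Lin male, and Ddc turned to -0.047 with 5 or more Epcam UMIs, neither being called, and the cause was not tested. Depth limits Snap25, Dscam and the Psmb11 class of Foxn1Lin male (11 cells), and with 1 library a group no difference between genotypes or sexes could be tested.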
